A study of Mus musculus with 6 samples.

Results

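The mevalonate pathway up to squalene was examined in the liver of aged mice through 9 genes that encode enzymes leading from acetyl-CoA to squalene and to its neighbouring branch point product. The rule names them by the enzymes they encode, although it was drawn up with earlier results of these data known, and they are *Acat2*, *Hmgcs1*, *Mvk*, *Pmvk*, *Mvd*, *Idi1*, *Fdps*, *Fdft1* and *Ggps1*. They are 9 of 54115 genes to which the deposited transcripts belong, and all 9 had enough reads to be tested. The study sequenced liver RNA of 3 wild-type (WT) and 3 *Sirt7* knockout (KO) mice. *Sirt7* encodes a nicotinamide adenine dinucleotide-dependent deacylase of the sirtuin family. Animals of both genotypes were males aged 24 months and fasted for 16 h before the liver was taken. Per the methods, the line was backcrossed to C57BL/6J and WT and *Sirt7* KO mice were littermates of heterozygous crosses. The libraries came from whole liver, and the labels number the mice of each genotype as separate biological replicates.

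In this pathway acetyl-CoA is condensed stepwise to HMG-CoA, converted to mevalonate, phosphorylated, and decarboxylated to the isoprene unit isopentenyl diphosphate. Isoprene units are then joined to farnesyl diphosphate, which is either paired head to head to give squalene, the first committed precursor of cholesterol, or extended to geranylgeranyl diphosphate for protein prenylation. In hepatocytes most of these genes are known targets of the sterol-sensing transcription factor SREBP-2, which is held in the endoplasmic reticulum by Scap and Insig proteins when sterols are plentiful and is released when they are scarce.

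The libraries held 9994860 to 13424776 reads on transcripts. *Sirt7* itself was measured at 55.2, 45.5 and 47.3 CPM (read counts scaled to a common library size) in WT 1, WT 2 and WT 3, and at 28.6, 41.7 and 40.8 CPM in *Sirt7* KO 1, 2 and 3. On this scale no *Sirt7* KO liver reached the lowest WT liver, which was so for 8.09% of all tested genes, and the log2 fold change was -0.41 ± 0.18 (SE) with an adjusted p of 0.423 in edgeR. Per transcript length the direction turned, with 34.4, 28.3 and 27.3 TPM in WT and 34.7, 49.9 and 68.0 TPM in *Sirt7* KO livers, and DESeq2 with length offsets gave a log2 fold change of 0.81 (adjusted p 0.0708). The average transcript length of *Sirt7* behind these values was 1444, 1278 and 1429 bases in WT and 638, 691 and 501 bases in *Sirt7* KO livers. Reads on the gene remained in every *Sirt7* KO liver, and its level does not by itself check the genotype labels. Which exons the knockout allele lacks is not given in the sources used here. Transcripts of the 5 hepatocyte markers that could be matched summed to 44400 to 50600 CPM in WT and 47800 to 58600 CPM in *Sirt7* KO livers. Hepatocyte markers were thus abundant in both genotypes.

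Promoter sequences are shown for *Hmgcs1*, *Mvk*, *Pmvk*, *Mvd* and *Idi1*, the genes with a sequence whose genotypes did not overlap, and for *Ggps1*, the gene with the smallest fold change. They come from RefSeq (GRCm38.p6), run 5′ to 3′ on the strand of the gene, and end at the base before the RefSeq start or, for *Idi1*, before the earlier GENCODE start. Capitals mark, on either strand, TCACNCCAC (a form of the sterol regulatory element bound by SREBP proteins), its contained core CACNCCAC, CCAAT (the NF-Y box) and GGGCGG (the Sp1 box).
*Hmgcs1*, chr13:119690201-119690350, plus strand: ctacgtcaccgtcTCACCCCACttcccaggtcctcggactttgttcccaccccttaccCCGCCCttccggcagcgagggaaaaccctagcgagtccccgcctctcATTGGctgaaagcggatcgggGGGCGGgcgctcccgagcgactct
*Mvk*, chr5:114444119-114444268, plus strand: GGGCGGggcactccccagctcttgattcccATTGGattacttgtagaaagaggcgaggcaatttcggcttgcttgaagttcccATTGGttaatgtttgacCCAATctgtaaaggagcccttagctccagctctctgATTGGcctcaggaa
*Pmvk*, chr3:89454391-89454540, plus strand: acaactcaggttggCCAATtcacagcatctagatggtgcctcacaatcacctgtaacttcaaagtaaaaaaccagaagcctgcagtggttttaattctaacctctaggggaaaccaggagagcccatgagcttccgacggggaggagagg
*Mvd*, chr8:122443423-122443572, minus strand: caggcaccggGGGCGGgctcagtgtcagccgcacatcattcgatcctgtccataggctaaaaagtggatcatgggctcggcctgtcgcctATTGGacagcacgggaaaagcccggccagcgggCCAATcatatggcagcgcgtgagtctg
*Idi1*, chr13:8885356-8885500, plus strand: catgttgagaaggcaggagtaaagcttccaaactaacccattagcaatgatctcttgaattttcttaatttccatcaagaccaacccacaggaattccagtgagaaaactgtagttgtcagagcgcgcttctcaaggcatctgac
*Ggps1*, chr13:14063489-14063638, minus strand: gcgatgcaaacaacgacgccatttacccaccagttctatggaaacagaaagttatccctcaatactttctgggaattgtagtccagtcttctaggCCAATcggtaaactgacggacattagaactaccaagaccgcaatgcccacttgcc

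A RefSeq window was given for 7 of the 9 genes, and *Fdps* and *Fdft1* were not searched. In the 250 bases before the start, TCACNCCAC was found in 1 of 7, *Hmgcs1*, where it lay 137 to 129 bases before the start. The same letters were found in 1.22% of 27025 genes and in 1.35% of the tested genes with a window. CACNCCAC was found in *Acat2* and *Hmgcs1*, against 6.05% of all genes. CCAAT was found in 6 of 7, all but *Acat2*, against 37.5% of all genes and 40.7% of tested genes. *Mvk* held 5 CCAAT boxes, the most of the 7, *Pmvk* held 1, and *Ggps1*, the gene with the smallest fold change, held 3. How the boxes relate to the fold changes was not tested. GGGCGG was found in 5 of 7, all but *Pmvk* and *Ggps1*, against 35.4% of all genes and 61.8% of tested genes. The 2 CCAAT boxes and the GGGCGG box of *Idi1* lie between the GENCODE and the RefSeq start, past the end of the stretch shown. A match is only a run of letters, and binding was not measured here.

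The question of the comparison was which liver transcripts differ between aged *Sirt7* KO and WT mice, here asked of the mevalonate pathway. All 9 genes had a higher fitted level in *Sirt7* KO livers, with log2 fold changes from 0.25 for *Ggps1* to 2.92 for *Fdft1* and a median of 1.78, while the median over all 12524 tested genes was -0.01 and 49.3% of them had a positive log2 fold change. In edgeR's quasi-likelihood test with Benjamini-Hochberg adjustment over all tested genes, 0 of 9 passed the call (adjusted p under 0.05 and fold change over 1.5), and the adjusted p ran from 0.145 for *Mvd* to 0.793 for *Ggps1*. Over all genes that call took 1 higher gene, 0.00798% of those tested, and 0.00% lower. At an unadjusted p under 0.05, 8 of 9 were higher and 0 were lower, all but *Ggps1*, against 6.54% of all tested genes higher and 4.78% lower. The same 8 also had a fold change over 1.5, against 4.42% of all tested genes higher by both limits. DESeq2, as an alternative, called 5 of 9 higher without length offsets (*Acat2*, *Mvk*, *Pmvk*, *Mvd* and *Idi1*), where it called 1.30% of genes higher and 0.488% lower. With length offsets it called 7 of 9, adding *Hmgcs1* and *Fdps*, where it called 1.38% of genes higher and 0.542% lower. Its adjusted p with offsets ran from 0.000214 for *Idi1* and 0.000424 for *Mvd* to 0.0494 for *Fdps* among these 7, and was 0.232 for *Fdft1* and 0.92 for *Ggps1*. In whole liver, fewer cells of a type and less RNA per cell cannot be told apart.

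All *Sirt7* KO livers lay above all WT livers for 6 of the 9 genes, against 8.74% of all tested genes. The exact permutation test of log2(CPM + 0.5), two-sided, gave p = 0.1 for each of these 6, the smallest p that 3 against 3 allows, and it gave 0.4 for *Acat2*, 0.2 for *Fdft1* and 0.6 for *Ggps1*.

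**Figure D1:**
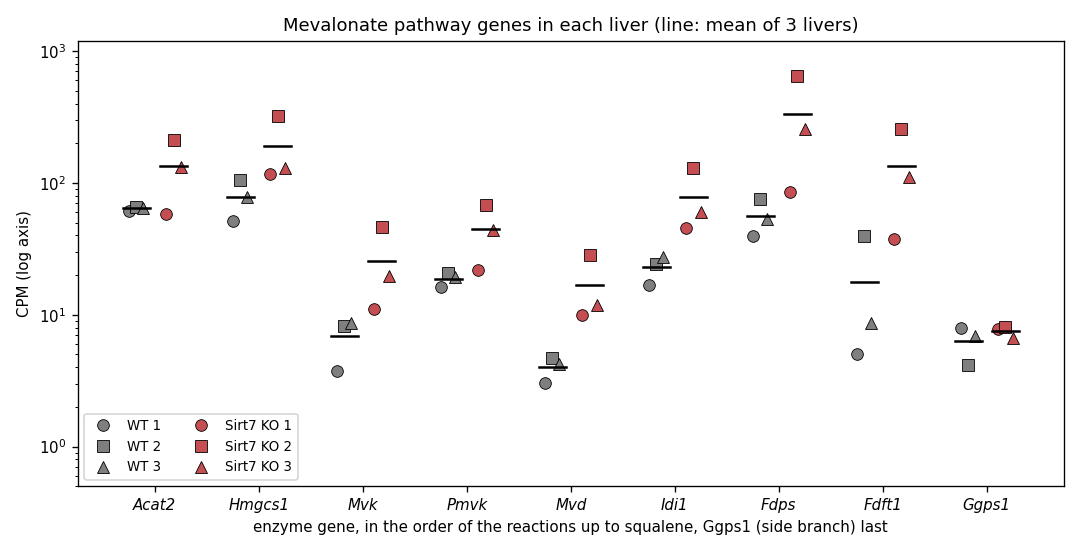
CPM of the 9 mevalonate pathway genes (log axis) in each of 3 WT livers (grey) and 3 *Sirt7* KO livers (red), with the mean of each genotype as a line. *Sirt7* KO 2 (red square) is the highest point for every gene, from 8.05 CPM for *Ggps1* to 650 CPM for *Fdps*.

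The first reactions join acetyl-CoA. *Acat2* (chr17:12942890-12960747, minus strand, GRCm38), a cytosolic thiolase that makes acetoacetyl-CoA, was at 61.5, 65.9 and 64.6 CPM in WT 1, 2 and 3 and at 58.5, 213 and 133 CPM in *Sirt7* KO 1, 2 and 3. The WT livers were close to each other, *Sirt7* KO 1 was below all of them, and only *Sirt7* KO 2 and 3 were high, so the genotypes overlapped. Its log2 fold change was 1.07 ± 0.37 (SE), with a 95% confidence interval of 0.23 to 1.92 and an adjusted p of 0.332. *Hmgcs1* (chr13:119690379-119708260, plus strand), the cytosolic HMG-CoA synthase, was at 51.6, 105 and 78.6 CPM in WT and at 116, 320 and 129 CPM in *Sirt7* KO livers. The genotypes did not overlap, although *Sirt7* KO 1 was only 1.11 times the highest WT liver. The log2 fold change of *Hmgcs1* was 1.27 ± 0.40, with an adjusted p of 0.281.

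Mevalonate is then phosphorylated and decarboxylated. *Mvk* (chr5:114444269-114460591, plus strand), which adds the first phosphate, was at 3.73, 8.17 and 8.73 CPM in WT and at 11, 46.4 and 19.7 CPM in *Sirt7* KO livers. *Sirt7* KO 2 stood at 6.75 times the WT mean, and the lowest *Sirt7* KO liver was 1.26 times the highest WT liver. The log2 fold change was 1.89 ± 0.51, with an adjusted p of 0.216. *Pmvk* (chr3:89454541-89469013, plus strand), which adds the next phosphate, was at 16.1, 20.8 and 19.4 CPM in WT and at 21.8, 67.9 and 43.7 CPM in *Sirt7* KO livers. Here *Sirt7* KO 1 was hardly above WT, at 1.05 times the highest WT liver, and the log2 fold change was 1.24 ± 0.35 with an adjusted p of 0.224.

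*Mvd* (chr8:122433601-122443422, minus strand), the decarboxylase that yields isopentenyl diphosphate, was at 3.05, 4.72 and 4.22 CPM in WT and at 9.98, 28.3 and 11.8 CPM in *Sirt7* KO livers. Of the 9 genes it had the widest gap between genotypes, with the lowest *Sirt7* KO liver at 2.12 times the highest WT liver, on 36 to 267 reads a liver. Its log2 fold change was 2.06 ± 0.41, with a confidence interval of 1.13 to 2.99, and its adjusted p of 0.145 was the lowest of the 9.

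*Idi1* (chr13:8885501-8892451, plus strand), which interconverts the isopentenyl and dimethylallyl forms of the isoprene unit, was at 16.7, 24.3 and 27.6 CPM in WT and at 45.6, 130 and 60.1 CPM in *Sirt7* KO livers. All *Sirt7* KO livers were clear of WT, the lowest at 1.65 times the highest WT liver. The log2 fold change of *Idi1* was 1.78 ± 0.37, with an adjusted p of 0.152. *Fdps* (chr3:89093588-89101959, minus strand), which builds farnesyl diphosphate, was at 39.7, 76.0 and 53.6 CPM in WT and at 85.8, 650 and 257 CPM in *Sirt7* KO livers. The *Sirt7* KO livers spread 7.57-fold among themselves, more than the WT livers at 1.91-fold, and *Sirt7* KO 1 was only 1.13 times the highest WT liver. The log2 fold change was 2.55 ± 0.61, with a confidence interval of 1.16 to 3.94 and an adjusted p of 0.179.

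Farnesyl diphosphate is the branch point between the sterol arm and the prenylation arm. *Fdft1*, squalene synthase, was at 5.0, 39.7 and 8.73 CPM in WT and at 37.4, 255 and 110 CPM in *Sirt7* KO livers. WT 2 was 7.95 times WT 1 and above *Sirt7* KO 1, so the genotypes overlapped, and the highest log2 fold change of the 9, 2.92 ± 0.84, went with the widest confidence interval, 1.01 to 4.82, and an adjusted p of 0.239. *Ggps1* (chr13:14050659-14063488, minus strand), which makes geranylgeranyl diphosphate, was at 7.87, 4.17 and 6.88 CPM in WT and at 7.78, 8.05 and 6.65 CPM in *Sirt7* KO livers. The genotypes overlapped, with WT 2 lowest, and the log2 fold change of 0.25 ± 0.28 had a confidence interval of -0.38 to 0.88 and an adjusted p of 0.793. That interval does not reach the fitted value of any other of the 9 genes, but the difference between *Ggps1* and the others was not tested.

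**Figure D2:**
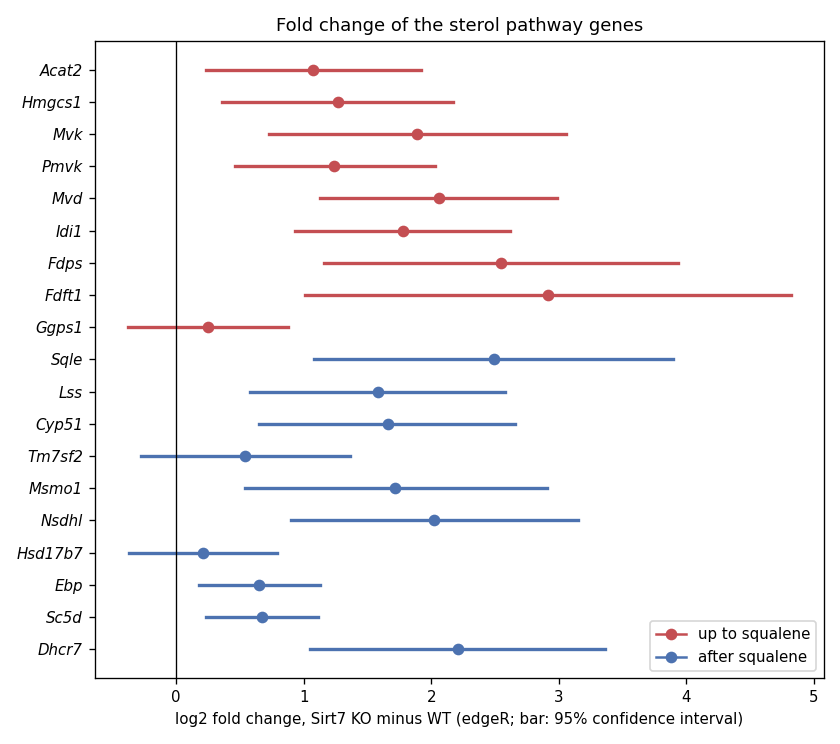
Log2 fold change (*Sirt7* KO minus WT) with its 95% confidence interval from edgeR for the 9 genes up to squalene (red) and 10 sterol synthesis genes after squalene (blue), in pathway order. Of the red intervals only that of *Ggps1*, -0.38 to 0.88, includes 0.

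The order of the livers was much the same from gene to gene. *Sirt7* KO 2 was the highest liver for 9 of 9 genes and *Sirt7* KO 3 the next for 8 of 9. *Sirt7* KO 1 was the third for 7 of 9, and WT 1 was lowest for 7 of 9. Relative to the WT mean, the median over the 9 genes was 1.52 in *Sirt7* KO 1, 5.67 in *Sirt7* KO 2 and 2.63 in *Sirt7* KO 3. The summed level of the 9 genes was 205, 349 and 272 CPM in WT and 394, 1720 and 772 CPM in *Sirt7* KO livers. *Sirt7* KO 1 was therefore nearer to the WT livers than to *Sirt7* KO 2 on this sum.

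For most genes the size of the difference depended on *Sirt7* KO 2, and the calls depended on *Sirt7* KO 1. Without *Sirt7* KO 2 the median log2 fold change of the 9 genes was 1.15, with 7 of 9 at an unadjusted p under 0.05 and 0 called. The share of all genes at that p was not counted without this liver. *Hmgcs1* then fell from 1.27 to 0.65, *Acat2* from 1.07 to 0.59 and *Fdps* from 2.55 to 1.60 on the log2 scale. *Fdft1* moved most without WT 2, from 2.92 to 4.28, and was at 2.05 without *Sirt7* KO 2. Without *Sirt7* KO 1 the median was 2.05, and edgeR called 6 of 9 (*Acat2*, *Mvk*, *Pmvk*, *Mvd*, *Idi1* and *Fdps*), with 165 genes of the whole table then called higher. Each of the 9 log2 fold changes stayed positive with any 1 liver left out.

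**Figure D3:**
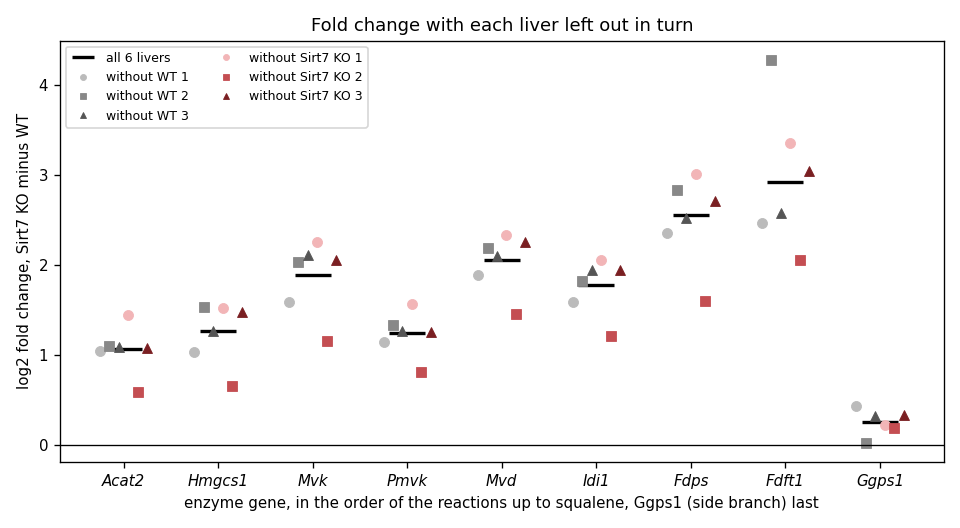
Log2 fold change of each of the 9 genes in edgeR with all 6 livers (black bar) and with each liver left out (points). Leaving out *Sirt7* KO 2 gives the lowest value for 8 of the 9 genes, for example 1.60 for *Fdps* against 2.55 with all livers.

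Levels between genes were compared in TPM, in which reads are scaled to transcript length and to a common library total. *Fdps* was highest in 6 of 6 livers, at 44.8 ± 11.3 TPM (SD, n = 3) in WT and 264 ± 236 TPM in *Sirt7* KO livers. Next in WT came *Acat2* at 27.0 ± 1.1 TPM and *Hmgcs1* at 23.7 ± 6.58 TPM. These neighbours changed places in WT 2 and in *Sirt7* KO 1, so their order was within the spread of the livers. *Pmvk* at 17.1 ± 1.82 TPM and *Fdft1* at 14.1 ± 7.61 TPM in WT also changed places, in WT 2. *Idi1* was the sixth in every liver, at 6.86 ± 1.41 TPM in WT and 23.3 ± 13.6 TPM in *Sirt7* KO livers. *Mvk* at 4.51 ± 1.89 TPM and *Ggps1* at 4.21 ± 0.551 TPM were not separable in WT. *Mvd* was lowest in each WT liver, at 2.18 ± 0.340 TPM, while in each *Sirt7* KO liver *Ggps1* was lowest, at 5.08 ± 2.0 TPM, below *Mvd* at 9.06 ± 5.64 TPM.

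The transcript estimates behind *Fdft1* were uneven. Its main transcript, Fdft1-201, was listed at 0 reads in WT 1 and WT 3, where the 59 and 118 reads of the gene went to other transcripts. It carried 69.22% of the reads of the gene in WT 2 and 73.47%, 87.60% and 84.83% in *Sirt7* KO 1, 2 and 3. An estimate of exactly 0 may be a failed split of reads between transcripts, which was not tested. With average transcript lengths as offsets, the log2 fold change of *Fdft1* in DESeq2 was 1.99, against 2.91 without them. The 3′ end of *Fdft1* (chr14:63145150-63179578, minus strand, GRCm38) overlaps *Ctsb*, a cathepsin gene on the opposite strand, by 774 bases, and 11.4% of its words of 31 bases occur in *Ctsb* transcripts. The library kit does not mark strand, so reads from the overlap cannot be told apart. *Ctsb* held 5683 to 7777 reads a liver, against 59 to 2404 for *Fdft1*. Summed with *Ctsb*, the log2 fold change was 0.35. *Ctsb* held more reads in every liver, so this sum is drawn towards *Ctsb* whatever part of the reads was shared. The part of shared reads in the *Fdft1* values was not tested.

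**Figure D4:**
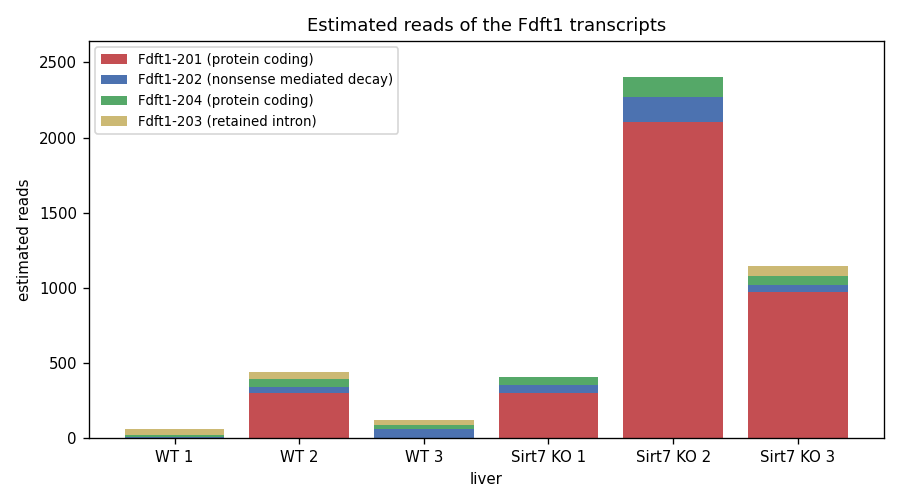
Estimated reads of the 4 *Fdft1* transcripts in each liver, stacked. Fdft1-201 (red) is listed at 0 in WT 1 and WT 3 and makes up most of the reads in the other 4 livers.

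The transcripts that carried the reads of other genes also varied between livers. Hmgcs1-201 held 74.17%, 58.78% and 40.51% of the *Hmgcs1* reads in WT 1, 2 and 3 and 47.94%, 83.30% and 79.29% in *Sirt7* KO 1, 2 and 3, and most of the rest went to Hmgcs1-202. Mvd-202, annotated for nonsense-mediated decay, held 62.23% of the *Mvd* reads in WT 3 and 17.42% in *Sirt7* KO 3 and was at 0 in the other 4 livers. The split of *Fdps* was steady, with 69.52% to 80.00% of reads on Fdps-201 in all 6 livers.

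Other genes of the pathway share sequence as well. *Acat2* shares 30.3% of its words with *Acat3*, a neighbouring close copy that held 2139 to 5029 reads a liver. The log2 fold change of the sum of both was 0.68 against 1.07 for *Acat2* alone. *Acat3* held more reads than *Acat2* in every liver, so this sum is drawn towards *Acat3* whatever part was shared. Transcripts Acat2-202 and Acat2-203 had reads only in *Sirt7* KO 2 and 3. *Idi1* shares 12.6% of its words with Gm13502, with 12 to 260 reads, and *Fdps* 18.2% with Gm43738, with 7 to 42 reads. Summing left *Idi1* at 1.91 and *Fdps* at 2.54, close to their own values. Only the gene that shares most words was summed. Counting every other gene, *Acat2* shares 36.3% of its words, *Fdps* 30.0%, *Fdft1* 18.2% and *Idi1* 15.3%, and the remaining sharing was not tested. *Hmgcs1* shares 9.11%, *Ggps1* 8.54% and *Mvk* 1.74% of words with other genes, and these genes were not summed with any other. *Pmvk* and *Mvd* share no word with another gene, so their log2 fold changes of 1.24 and 2.06 do not carry this uncertainty. Antisense genes overlap *Hmgcs1*, *Mvd*, *Idi1* and *Ggps1*, of which Gm20388 over *Mvd* shares no word with it.

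The enzymes that carry squalene on to cholesterol were read from 10 genes. All 10 had a positive log2 fold change, with a median of 1.62. At an unadjusted p under 0.05, 8 of 10 were higher and 0 lower, against 6.54% and 4.78% of all tested genes. All *Sirt7* KO livers lay above all WT livers for 7 of 10, against 8.74% of all tested genes. The edgeR call took 0 of 10. DESeq2 called 1 of 10 without length offsets, *Lss*, the cyclase that forms lanosterol, and 2 with them, *Nsdhl* and *Cyp51*. Over all genes DESeq2 called 1.30% higher without length offsets and 1.38% with them. *Sqle*, the monooxygenase that oxidises squalene, was at 5.84, 21.8 and 8.58 CPM in WT and at 25.4, 125 and 52.6 CPM in *Sirt7* KO livers. *Sirt7* KO 2 was again highest, and the log2 fold change was 2.49 ± 0.62, with an adjusted p of 0.192. *Dhcr7*, which makes cholesterol from 7-dehydrocholesterol, had a log2 fold change of 2.21 ± 0.51, *Nsdhl*, a sterol dehydrogenase, 2.02 ± 0.50, and *Cyp51*, the lanosterol demethylase, 1.66 ± 0.44, with adjusted p of 0.166, 0.188 and 0.213 in edgeR. *Hsd17b7* and *Tm7sf2* were those not at an unadjusted p under 0.05, with log2 fold changes of 0.21 and 0.54. A promoter window was given for 9 of these 10 genes, and a gene counted if any of its windows held the motif. By that count 9 of 9 held CCAAT and 9 of 9 GGGCGG, against 40.7% and 61.8% of tested genes. The first window of *Dhcr7* held GGGCGG but not CCAAT, which lay in another window of that gene. TCACNCCAC was found in 0 of 9, against 1.35% of tested genes.

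Supply of acetyl-CoA was read from 3 genes, none of which edgeR called. *Acss2*, which makes cytosolic acetyl-CoA from acetate, was at 37.6, 59.2 and 63.5 CPM in WT and at 72.3, 388 and 208 CPM in *Sirt7* KO livers. The genotypes did not overlap, with a log2 fold change of 2.06 ± 0.51 and an adjusted p of 0.188. *Acly*, which cleaves citrate to acetyl-CoA, had a log2 fold change of 1.06 ± 0.34 and an adjusted p of 0.290 in edgeR, and was called by DESeq2 without length offsets (0.0309) but not with them (0.333). The log2 fold change of *Slc25a1*, the mitochondrial citrate carrier, was 0.36 ± 0.24, with an adjusted p of 0.617 in edgeR. *Sirt7* KO 1 overlapped WT in both.

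Among 8 genes that control SREBP proteins or respond to sterols, 5 were higher and 0 lower at an unadjusted p under 0.05. Over all tested genes 6.54% were higher and 4.78% lower at that p. The median log2 fold change of the 8 was 0.54, and 0 were called by edgeR. DESeq2 called 1 of 8, *Insig1*, with an adjusted p of 0.00146 without and 0.0138 with length offsets. *Insig1*, an endoplasmic reticulum anchor that is itself a sterol-responsive gene, was at 37.7, 47.4 and 62.3 CPM in WT and at 76.0, 147 and 105 CPM in *Sirt7* KO livers. Every *Sirt7* KO liver exceeded every WT liver, and the log2 fold change was 1.15 ± 0.26 with an adjusted p of 0.166. *Scap*, the escort protein, also did not overlap, with a log2 fold change of 0.56 ± 0.15 and an adjusted p of 0.216. *Srebf1*, which encodes SREBP-1, at 1.05 ± 0.40 and *Insig2*, the other anchor, at 0.58 ± 0.22 overlapped between genotypes.

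Genes that use isoprenoids outside sterol synthesis had smaller log2 fold changes. Of 16 such genes (dolichol, ubiquinone, haem A and protein prenylation), 10 had a positive and 6 a negative log2 fold change. Their median was 0.17. Of the 16, 0 were higher and 1 lower at an unadjusted p under 0.05, against 6.54% and 4.78% of all tested genes. The lower one was *Rabggtb*, the catalytic subunit of Rab geranylgeranyl transferase, at -0.43 ± 0.18, with an adjusted p of 0.400 in edgeR. Next by p were *Dhdds*, a subunit of the dolichol-forming prenyltransferase, at 0.36 ± 0.20, *Coq2*, the prenyltransferase of ubiquinone synthesis, at 0.27 ± 0.15, and *Dolk*, the dolichol kinase, at 0.25 ± 0.15. The summed level of the 16 genes lay between 292 CPM in WT 1 and 317 CPM in *Sirt7* KO 2. The genotypes overlapped on this sum, with *Sirt7* KO 1 at 295 CPM below WT 3 at 298 CPM.

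**Figure D5:**
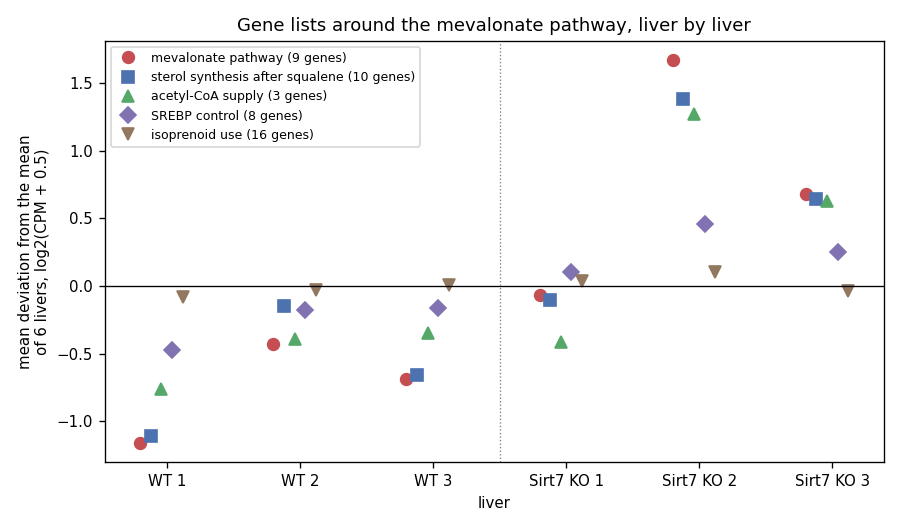
Mean deviation of each gene list from its mean over the 6 livers, in log2(CPM + 0.5), for each liver. The mevalonate pathway (red circles) runs from -1.16 in WT 1 to 1.67 in *Sirt7* KO 2 and the isoprenoid use list (brown triangles) from -0.08 to 0.10.

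The gene of these lists whose pattern was most like the mean of the 9 genes was *Dhcr7*, with a Pearson's r of 0.995 over the 6 livers. It ranked 4 of 12515 tested genes outside the 9, below genes of no list with an r of up to 0.998. It was the only listed gene among the 10 with the highest r. The 6 livers fall into 3 of each genotype, so each r also carries the difference between genotypes and is a description. Other measures also moved with genotype. The 3 erythroid markers summed to 262, 230 and 208 CPM in WT and to 440, 302 and 545 CPM in *Sirt7* KO livers, with none at 0. Of these, 1 of 3, *Alas2*, was higher at an unadjusted p under 0.05, against 6.54% of all tested genes. *Alas2*, an enzyme of haem synthesis in red cell precursors, did not overlap between genotypes, had a log2 fold change of 1.26 ± 0.29 with an adjusted p of 0.166 in edgeR, and was called by DESeq2 without and with length offsets (adjusted p 0.000615 and 0.0051). The globin genes *Hbb-bs* and *Hba-a1* overlapped between genotypes. *Sirt7* KO 2 was the lowest of the 6 livers for each, at 59.3 and 45.5 CPM. Thus *Sirt7* KO 2, the highest for the mevalonate pathway, was the lowest *Sirt7* KO liver for the erythroid sum. The 20 genes with most reads took 23.7% to 25.3% of reads in WT and 26.0% to 27.0% in *Sirt7* KO livers. The part of either in the fold changes was not tested. Summed markers of Kupffer cells, endothelium, stellate cells, cholangiocytes, lymphocytes and neutrophils overlapped between genotypes, and no tested marker of these lists was at an unadjusted p under 0.05.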

How the data were processed

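Liver RNA of 3 WT and 3 *Sirt7* KO mice was analyzed by gene. The authors made cDNA with SMART-seq HT and libraries with Nextera XT, neither of which marks strand. Reads were trimmed with Trim Galore 0.6.5 and quantified on the mouse transcriptome (GRCm38) with Salmon 1.2.1, per the labels and methods. The authors deposited, per mouse and transcript, estimated counts, which are not normalized, and TPM, which Salmon scales to effective length and to a fixed total. The annotation release is not given in the sources used here.

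Estimated counts were summed over the transcripts of each GENCODE M21 gene and rounded. Of 140992 transcripts, 139172 matched with the same version and 619 with another, and 1201, with 0.303% to 0.492% of reads, had no gene and were left out. Genes passing filterByExpr (minimum count 10; 12524 genes) were tested with edgeR 4.0.16 (R 4.3.3), by the quasi-likelihood test after TMM scaling, and p-values were adjusted over all tested genes (Benjamini-Hochberg). A call needed an adjusted p under 0.05 and a fold change over 1.5. CPM values use TMM-scaled library sizes. The study's DESeq2 (here 1.42.0) was an alternative, with and without average transcript length offsets. Other alternatives were other scalings, filters and thresholds, thinned libraries, the replicate number as a block, and leaving out each mouse. Single genes were also compared by exact permutation. Livers of 1 genotype differed by more than sampling noise (chi-square of 17.5 to 74.3 per gene), so each counted as 1 sample. The scripts were tested on simulated counts.

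Members, lists and tests were chosen with earlier results of these data known. The text names *Sirt7*, the 9 genes, up to 4 genes of each pathway list by smallest unadjusted p (all genes of lists of 4 or fewer), and listed genes among the 10 most correlated. *Hsd17b7*, *Tm7sf2*, *Lss*, *Alas2*, *Hbb-bs* and *Hba-a1*, and the genes that share sequence, were named after their values were seen. Some genes of these pathways are not reported here. Sums with sequence-sharing genes were chosen after seeing the data. Motifs, with both strands searched, and words of 31 bases were counted with Python 3.11.15 in RefSeq and GENCODE sequences. A gene with several RefSeq windows counted as holding a motif if any window did. No molecular identifiers are named, so depth covers counting error only.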

Additional observations from a re-analysis of the deposited data

How the results depend on the processing

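The 9 log2 fold changes kept their direction under every alternative run, and none was reversed. Calls depended on the test and the filter. With no filter on low counts, edgeR called 417 genes higher and 216 lower, and 8 of the 9 mevalonate genes. What share of all genes those calls made was not counted. In that fit the prior degrees of freedom were infinite, so each gene's own spread was not used. DESeq2 called 186 higher, 70 lower and 5 of 9 without length offsets, and 176 higher, 69 lower and 7 of 9 with them. With total counts or thinned libraries 2 genes were called higher, and with length offsets in edgeR 1 lower. At an unadjusted p under 0.05 with a fold change over 1.5, 554 genes were higher (4.42%), 371 lower and 8 of 9 passed. Total counts shifted the median of all genes to -0.11. Leaving out 1 mouse gave 0 to 165 genes higher, 0 to 87 lower and 0 to 6 of the 9 called, with all of the upper values without *Sirt7* KO 1. The median of the 9 then ran from 1.15 to 2.05, and the count without overlap from 6 to 8. Separation is easier with 2 mice in a genotype, and the share of all genes without overlap was not counted in these fits. Fits that leave 2 mice in a genotype assume that they vary like the others. The order of levels by length was the same with CPM per kilobase for 9 of 9 genes. The lengths used were averaged with TPM as weights, so this match was fixed in advance and is no separate check.

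With the replicate number as a block, edgeR called 31 of the 12524 tested genes higher and 10 lower. Of the 9 it called 1, *Fdft1* (log2 fold change 3.07, adjusted p 0.010). Same-numbered mice are different animals, and the labels state no pairing. Their deviations correlated at 0.07, 0.08 and -0.04, and those of differently numbered mice at -0.1 to 0.05. With 3 mice a genotype, these values are too few to tell whether the numbers mark a pairing. The biological coefficient of variation was 26.4%, and *Mvd*, *Mvk*, *Ggps1* and *Fdft1* rest on few reads in some livers (36, 44, 46 and 59 in the lowest).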
